A study of Mus musculus with 2 samples.

Results

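Tia1 crosslinks were examined on small structured non-coding RNAs, the short RNAs that work as folded molecules inside ribonucleoprotein particles rather than as messages. The set held every mouse GENCODE gene annotated as snRNA, scaRNA, snoRNA, misc_RNA, ribozyme, rRNA or miRNA, outside the mitochondrial chromosome, in which the pooled site list had at least 1 crosslink site on the gene's strand and outside the exons of protein-coding genes. It comprised 63 of 6081 annotated genes of these types, at 62 loci because 2 overlapping records of Rnu3a share their sites. The genes were thus selected on their pooled sites, the same sites give the counts below, and the counts are a description without a test. At the edge of the rule, 5 genes entered with 1 pooled cDNA each, and 6018 annotated genes had no such site. Among the latter, the snoRNA Gm23262 had 225 pooled cDNAs but lies in an exon of a protein-coding gene and was left out by the rule.

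Crosslinks of Tia1 were mapped to single nucleotides by iCLIP, in which RNA is joined to protein by UV light and recovered with an antibody. Tia1 is an RNA-binding protein that recognises uridine-rich RNA. Both samples were splenic B cells of C57BL/6 mice, cultured for 48 h with 10 µg/ml of lipopolysaccharide (LPS), crosslinked with UV light and fractionated, and the cytoplasmic extract was used. They are 2 replicates of 1 condition, replicate 1 and replicate 2, and no control library was analysed here. The labels name a goat antibody to Tial1, the close paralogue of Tia1, whereas the methods of the study name a Tia1-specific antibody, and UV dose and RNase concentration are not the same in these sources. In iCLIP reverse transcription stops at the crosslinked nucleotide, so each unique cDNA marks 1 nucleotide. A site is a crosslinked nucleotide that passed the authors' false discovery rate (FDR). Each was scored with the 15 nt on either side, so a site can hold as little as 1 cDNA.

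Small nuclear RNAs (snRNAs) form the core of the spliceosome. Newly made U1, U2, U4 and U5 snRNAs are exported to the cytoplasm, where a ring of Sm proteins is assembled on a short uridine-rich Sm site before they return to the nucleus. Y RNAs are made by RNA polymerase III and bind the Ro60 and La proteins, and their internal loop is rich in pyrimidines. 7SK RNA holds the elongation factor P-TEFb in an inactive nuclear complex, small nucleolar RNAs (snoRNAs) guide the modification and processing of ribosomal RNA, vault RNA belongs to a large cytoplasmic particle, and miRNAs guide Argonaute proteins to messages.

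The pooled list held 422150 sites and 867271 cDNAs, and the lists of replicates 1 and 2 held 639108 and 165081 cDNAs, so replicate 2 was the shallower library. Small structured RNAs carried 634 sites and 3862 pooled cDNAs, which was 0.445% of all pooled cDNAs. They took 0.457% of the cDNAs of replicate 1 (exact 95% interval 0.440% to 0.473%) and 0.406% of those of replicate 2 (0.376% to 0.438%), a mean of 0.432% ± 0.0354 (SD, n = 2). Intervals here and below are Clopper-Pearson intervals and cover counting error only. With 1 group of 2 replicates no test over samples was made. All 6 B cell markers had sites, Pax5 with 1496 and 303 cDNAs in replicates 1 and 2, whereas 4 of 6 T cell markers and 2 of 5 myeloid markers had none.

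The stretches with the most cDNAs in the leading RNAs are shown first, because the nucleotides with the highest counts were mostly uridines, often in short runs. All sequences are from the GRCm38.p6 assembly of RefSeq, written 5′ to 3′ in RNA letters, and positions are counted from 1 at the annotated 5′ end. Capitals mark nucleotides that held at least 5% of the gene's pooled cDNAs. Stretches are 28 nt long and hold the most cDNAs of the RNA or, where said, a motif or Sm site.

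The Y RNAs and 7SK were crosslinked in these stretches:
Rny3, nt 49 to 76, chr6:47781672-47781699, plus strand: uacagaUUUcUUuguUccUuCuccgcuc
Rny1, nt 61 to 88, chr6:47788093-47788120, minus strand: cuccugUuCUacacUUuccccccuucuc
Rn7sk, nt 258 to 285, chr9:78175349-78175376, minus strand: cguaggguagucaagcUUcCaagacucc

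U5 snRNA genes were crosslinked at the Sm site, shown for the 7 copies with sites there because they differ around it:
Gm24871, nt 77 to 104, chr1:171503060-171503087, minus strand: gucUuacacuaaUuuUUugaggccuugc
Gm25099, nt 77 to 104, chr4:117190018-117190045, plus strand: gucuuaacccaauuUUUugagguccugc
Gm22265, nt 76 to 103, chr1:192745646-192745673, plus strand: agucauuaccaauuuUUugaggucuugc
Gm23143, nt 77 to 104, chr4:117202604-117202631, plus strand: gucuuaacucaauuUUUugagguccugc
Gm25313, nt 77 to 104, chr9:65196584-65196611, minus strand: gucUuaaaccaauUUUUUgaggccuugu
Rnu5g, nt 77 to 104, chr9:65201738-65201765, minus strand: gucUUaaaccaAUUUUUugaggccuugu
Gm23287, nt 77 to 104, chr4:117210920-117210947, plus strand: gucuuaacccaaUUUUUugaggucuugu

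Other spliceosomal RNAs are shown for comparison, with the U1 genes Rnu1a1 at its Sm site and Gm24305 at its 5′ end:
Gm24407, nt 60 to 87, chr5:115490313-115490340, plus strand: aaUugaaaaCUUUUccCaauaccccgcc
Gm25541, nt 82 to 109, chr2:27539822-27539849, minus strand: uuaaggcauugccaccUacUUcguggca
Rnu1a1, nt 115 to 142, chr11:87422981-87423008, plus strand: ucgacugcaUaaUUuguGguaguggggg
Gm24305, nt 2 to 29, chr12:54734690-54734717, minus strand: UaCuUaccuggcaggggagauaccguga
Gm22973, nt 88 to 115, chr12:59040422-59040449, plus strand: aUauuaaauggAUuUuugggaauaggag
Rnu12, nt 109 to 136, chr15:83149752-83149779, plus strand: acccgccUaCUUUGcgggaugccugggu

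snRNAs accounted for 59.6% of the pooled cDNAs on small structured RNAs, with 2301 cDNAs in 23 genes, and misc_RNA genes (Y RNAs, 7SK and vault RNA among them) for 25.7%, with 992 cDNAs in 6 genes. snoRNAs followed with 242 cDNAs in 18 gene records, miRNAs with 174 in 10, rRNAs with 113 in 3, scaRNAs (small Cajal body RNAs) with 37 in 2 and ribozymes with 3 in 1. The signal was concentrated in few genes. The 5 leading genes held 46.3% of the cDNAs and the 10 leading genes 71.4%, whereas the median gene had 19. Of the 63 genes, 38 had at least 10 pooled cDNAs and 8 had at least 200.

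The authors also called sites on each replicate alone. By those calls 25 of the 63 genes had a site in both replicates, 21 in replicate 1 only, 4 in replicate 2 only and 13 in neither, so that the last were seen only when the replicates were pooled. Over all genes with a pooled site, 57.9% were called in both replicates, so the small RNA genes were not called more often than genes in general. Among those with at least 10 pooled cDNAs the count was 25 of 38, beside 82.2% of all genes at that depth. Of 209 nucleotides of small RNAs called in replicate 2, 167 were also called in replicate 1, a share of 79.9% (73.8% to 85.1%), beside 62.8% of all replicate 2 sites in the pooled list. Where a replicate's own list lacks a nucleotide, its cDNAs there were taken as the pooled count less the other replicate's count. This split covered 3752 of the 3862 cDNAs.

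**Figure D1:**
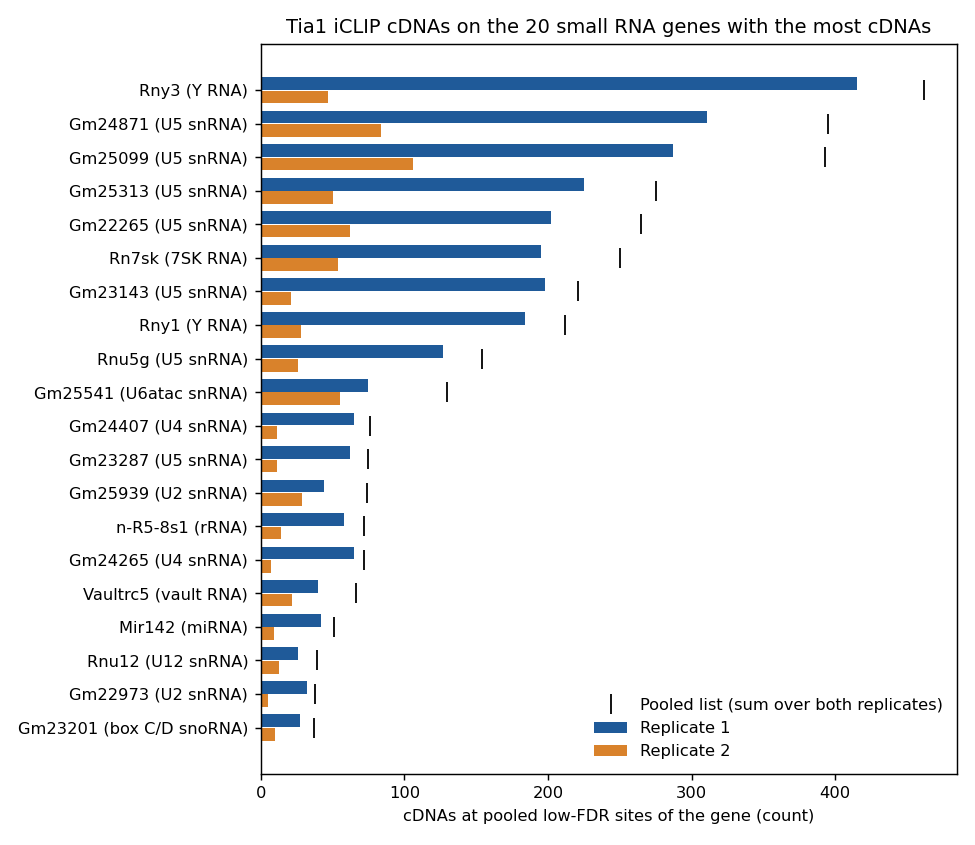
cDNAs at pooled low-FDR sites (x axis, count) of the 20 small RNA genes with the most cDNAs (y axis), for replicate 1 and replicate 2, with the pooled count as a vertical mark. The highest is Rny3, at 415 and 47 by the split, and Gm25541 has 75 and 55.

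U5 snRNA, the spliceosomal RNA whose loop holds the ends of both exons during splicing, was the most crosslinked family. Its 8 genes held 1785 pooled cDNAs, 46.2% of the cDNAs on small structured RNAs, and 6 of the 8 were called in both replicates. Gm24871 had 311 cDNAs in replicate 1 and 84 in replicate 2. Gm25099 had 287 and 103, and Gm25313 had 225 and 47. Rnu5g, the only copy with a family name, had 127 and 24 and ranked below 5 copies known only by Gm numbers. Gm23143 was not called in replicate 2. It had 198 cDNAs in replicate 1, and the split left 21 for replicate 2. Gm22365, the copy with the fewest, had 0 and 5, all in the loop.

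Crosslinks on U5 fell into 2 clusters, whose limits were set after the sites were seen. The first, at nucleotides 31 to 60, covered the conserved loop and held 691 cDNAs, and the second, at nucleotides 70 to 105, covered the Sm site and held 1094. No U5 cDNA at a low-FDR site lay outside these stretches, which were drawn around those sites. In Gm24871 the loop held 144 and 47 cDNAs in replicates 1 and 2, and the Sm region 167 and 37. Its highest loop nucleotide was the uridine at position 42 with 50 and 11 cDNAs, and its highest Sm nucleotide was the uridine at position 92 with 32 and 11. In Gm25099 position 92 also had 32 and 11. Uridines of both clusters were thus seen in each replicate. Over the 8 genes the loop took 36.5% (34.0% to 39.1%) of the U5 cDNAs called in replicate 1 and 50.3% (44.7% to 55.9%) of those called in replicate 2. With the split the share of replicate 2 was 47.4% (42.2% to 52.7%). The split added 16 replicate 2 cDNAs at the Sm site of Gm22265 and 9 at that of Gm23143, where none was called in replicate 2 alone. The difference between single libraries was not tested. Uridine 80, upstream of the run in the Sm site, had 33 and 4 cDNAs in Gm24871 and 36 and 1 in Gm25313, so few of its cDNAs came from replicate 2.

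Gm25313, Rnu5g and Gm23287 had no site in the loop. Whether a read can be placed on 1 copy was measured by counting, for each nucleotide, how often the next 30 nt occur in the genome. Over the 8 copies they occur once at 90 of 240 nucleotides of the loop stretch and 261 of 288 of the Sm stretch. The part of mapping in the cDNA totals of the 2 stretches was not tested. In Gm25313 and Rnu5g, which are identical at 113 of 116 positions, every nucleotide up to position 74 is followed by 30 nt found at least 2 times, so a loop read of that length has no unique place in either. In Gm22265 the next 30 nt occur once from position 40 on, and this copy had 123 and 46 loop cDNAs in the 2 replicates, with the uridine at position 43 at 38 and 10. Only 9 of all its pooled cDNAs lay at nucleotides without a unique continuation. In Gm24871, Gm25099 and Gm23143 the 30 nt after position 40 occur 6 times each, and the division of loop cDNAs among these copies is uncertain. Gm23287 had no loop cDNA although its continuation is unique from position 41 on. The treatment of reads with several places in the authors' mapping is not given in these sources.

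**Figure D2:**
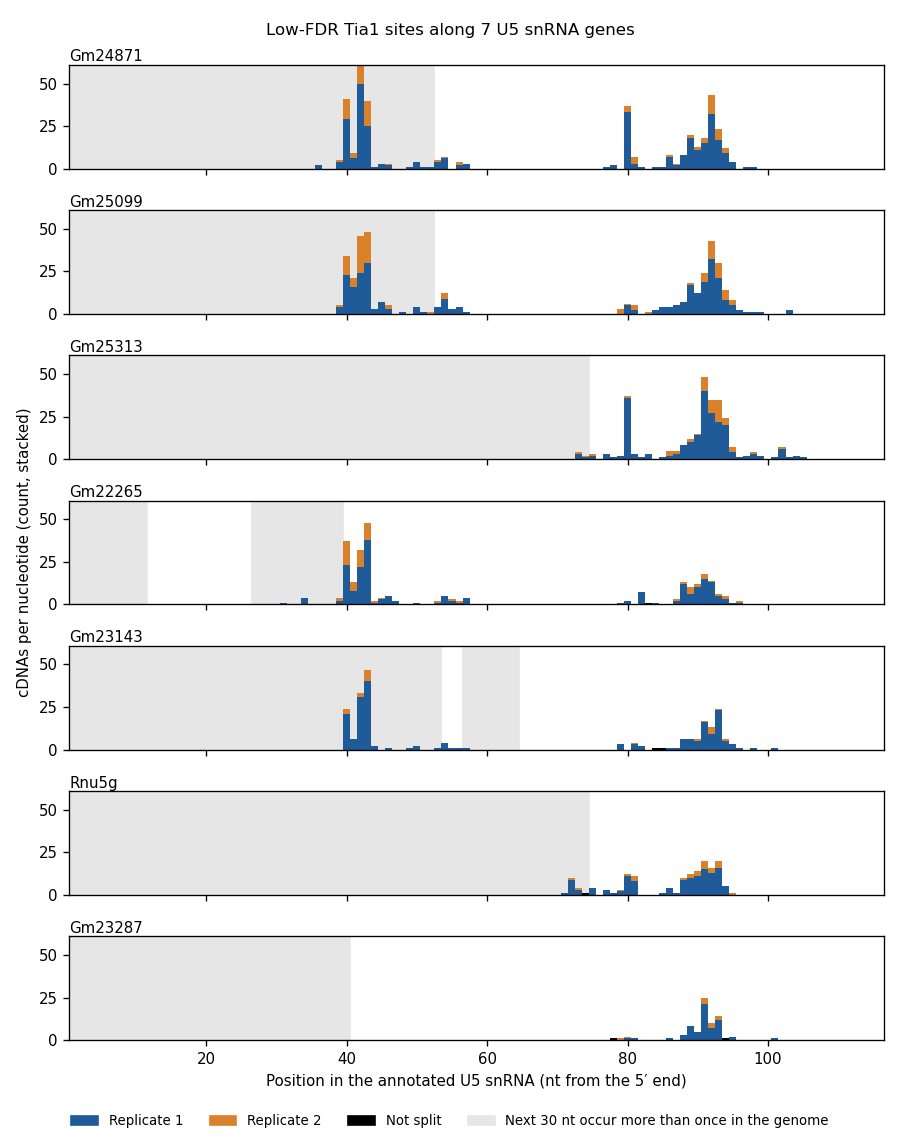
cDNAs per nucleotide (y axis, count, replicates stacked) along 7 U5 snRNA genes (x axis, nucleotides from the 5′ end), with grey marking nucleotides whose next 30 nt occur more than once in the genome. All 7 copies have a cluster at the Sm site around nucleotides 88 to 93, and 4 of them also have one in the loop around nucleotides 40 to 43.

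The Sm site was searched for as AUUUNUG or AUUUNUUG on the RNA strand. It was present in 19 of 62 small RNA loci with sites, beside 514 of 6081 annotated genes of these types (8.45%). All 19 were snRNAs, a type that made up 23 of the 63 gene records and 1383 of the 6081 annotated genes. The shares were not compared within snRNAs. In those 19 RNAs, nucleotides within 5 nt of a match made up 11.9% of the length and held 958 of 2152 pooled cDNAs (44.5%), and 11 of the 19 had a cDNA there. Besides the 7 U5 copies these were U1 genes Rnu1a1, Gm22513 and Gm22042, with 11, 11 and 10 cDNAs of which all lay at the match, and the U2 gene Gm22973, with 33 of 38. For these U1 genes every cDNA lay where the next 30 nt occur more than once, so their division among U1 copies is uncertain. The U4 genes Gm24407 and Gm24265 hold a match from position 119 of 141 but had no site near it. Over all small RNAs, 15 of 3862 pooled cDNAs had fewer than 15 nt to the 3′ end. The median gene had 32 nt after its last site. The part of the distance to the 3′ end in the lack of U4 sites was not tested. A match is a description of letters and not of a bound Sm ring. The 11.9% of the length counts all nucleotides, also those whose next 30 nt occur more than once. The part of mapping in its contrast with the 44.5% of cDNAs was not tested.

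U4 snRNA, which pairs with U6 before the spliceosome is activated, had 2 genes of 98.6% identity. Gm24407 had 65 cDNAs in replicate 1 and 11 in replicate 2, and Gm24265 had 65 and 7. Their sites lay between positions 56 and 85, with the highest pooled nucleotide of each at uridine 70 of the run CUUUU.

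Gm25541, a gene for U6atac, the catalytic RNA of the minor spliceosome, had 75 and 55 cDNAs in replicates 1 and 2, and replicate 2 thus supplied 42.3% (33.7% to 51.3%) of its called cDNAs, beside 20.5% over all sites. Most cDNAs lay on 3 uridines, with 26 and 23 at position 98, 34 and 21 at position 101, and 8 and 9 at position 102. Position 101 was thus the highest in replicate 1 and position 98 in replicate 2. Another U6atac gene, Gm23879, had 6 and 0. Rnu12, the U12 snRNA of the minor spliceosome, had 26 and 13 with the highest count at uridine 119 in each replicate.

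U2 and U1 snRNAs recognise the branch point and the 5′ splice site of introns. In the U2 gene Gm25939, 44 and 21 cDNAs were called, at positions 33 to 77 and not at the Sm site, and 37 of its 74 pooled cDNAs lay where the next 30 nt occur more than once. Gm22973 had 32 and 2. Its pooled cDNAs lay mostly at the Sm site, whereas the 2 called in replicate 2 lay at positions 87 and 89. Gm24305, a U1 gene named after its values were seen, had 13 and 11 cDNAs, all at positions 2 to 7 within the 5′ end that pairs with the splice site, with 5 and 5 at uridine 2 and 7 and 4 at uridine 6. All of these have a unique continuation. The other U1 genes had no site at the 5′ end. Gm24305 and Rnu1a1 are identical at 163 of 164 positions. Nucleotides 1 to 136 of Rnu1a1 and 26 to 164 of Gm24305 are followed by 30 nt that occur more than once. The part of mapping in the different places of their sites was not tested.

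Y RNAs were the second family, with 674 pooled cDNAs in Rny1 and Rny3. Rny3 had the highest count of the small RNA genes, 415 cDNAs in replicate 1 and 45 in replicate 2, or 452.9 pooled cDNAs per 100 nt. Rny1 had 184 and 28, or 189 pooled cDNAs per 100 nt. On this scale Rny3 was followed by Gm24871 at 341 and Gm25099 at 339. Density is given per length of the annotated RNA and does not account for RNA abundance, which was not measured.

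The Y RNA sites formed 1 block in each gene, at positions 44 to 79 of Rny3 and 56 to 91 of Rny1. Each block covers a pyrimidine-rich stretch, and neither end of the RNAs had a site. The last site was followed by 23 nt in Rny3 and 21 nt in Rny1. The part of the distance to the 3′ end in the lack of later sites was not tested. Nucleotides 4 to 21 of Rny3 and 7 to 38 of Rny1 are followed by 30 nt that occur more than once in the genome, and the part of mapping in the lack of sites there was not tested. All 462 and 212 pooled cDNAs lay at nucleotides with a unique continuation. In Rny3 the 7 highest nucleotides were the uridines at positions 55, 56, 57, 59, 60, 64 and 67, with 28 to 33 pooled cDNAs each, and the cytidine at position 69 followed with 24. In Rny1 the highest was uridine 76, with 21 and 9 cDNAs in the 2 replicates. Replicate 2 supplied 10.9% (8.61% to 13.5%) of the called Y RNA cDNAs, below the 20.5% over all sites. For Rny3 it was 9.78% by calls and 10.2% by the split. For the U4 genes it was 12.2% (7.37% to 18.5%), for U5 18.5% (16.7% to 20.4%) and for U6atac 40.4% (32.1% to 49.2%). These intervals cover counting error only, and no test between single libraries was made.

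Rn7sk had 195 cDNAs in replicate 1 and 53 in replicate 2, or 75.5 pooled cDNAs per 100 nt of its 331 nt. Replicate 2 supplied 21.4% (16.4% to 27.0%), close to the share over all sites. Its 51 sites lay between positions 234 and 296, with no single dominant nucleotide, the highest being uridine 275 with 11 and 9. Of the 331 nucleotides, 221 are followed by 30 nt that occur more than once in the genome, up to 14 times, and all 250 pooled cDNAs lay at the 110 that are not. The first 216 nucleotides all belong to the repeated part, and the part of mapping in the lack of sites there was not tested. Rn7sk is a nuclear RNA, and the nuclear transcript Malat1 had 2238 and 458 cDNAs and Neat1 17 and 0 in the same cytoplasmic extracts. The part of nuclear RNA in the Rn7sk count was not tested.

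**Figure D3:**
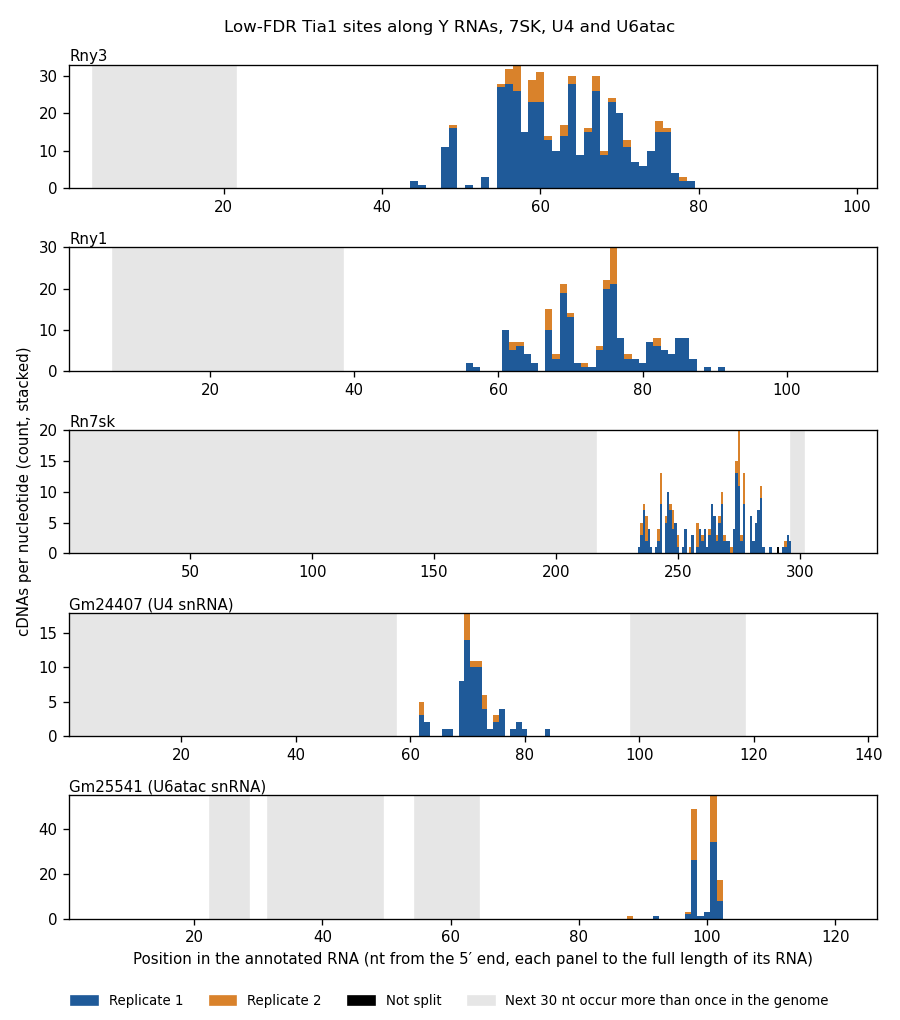
cDNAs per nucleotide (y axis, count, replicates stacked) along Rny3, Rny1, Rn7sk, a U4 gene and a U6atac gene (x axis, nucleotides from the 5′ end), with grey as in the plot of U5 genes. Sites of Rny3 lie between positions 44 and 79, those of Rn7sk lie only between positions 234 and 296 after the long grey stretch, and those of Gm25541 are highest at positions 98 and 101.

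Vaultrc5, the mouse vault RNA, had sites at positions 7 to 23 only. Its calls were 4 cDNAs in replicate 1 and 22 in replicate 2, which is the reverse of the library depths. The split gave 40 and 22, with 14 and 9 on uridine 9, so that most replicate 1 cDNAs fell at nucleotides that had not passed the threshold in that replicate alone. Rpph1, the RNA of RNase P, which trims the 5′ ends of tRNAs, had 3 and 0. Outside exons of protein-coding genes, Rmrp, the RNA of the related RNase MRP, had no low-FDR site. The telomerase RNA Terc and the 3 signal recognition particle RNAs Rn7s1, Rn7s2 and Rn7s6 had none there either.

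Among 18 snoRNA records with sites, 2 loci led, and both are box C/D RNAs of the SNORD12/SNORD106 group in introns of Zfas1. Gm23201 had 27 and 10 cDNAs, with uridine 61 highest in each replicate at 8 and 4. Gm25878 had 25 and 0 by calls, and 9 of its pooled cDNAs came from replicate 2 by the split, with uridine 27 at 10 and 6. Their stretches are shown because the highest counts lay in a short uridine-rich run in each:
Gm23201, nt 44 to 71, chr2:167065041-167065068, plus strand: ccauguugaucacaUUCUUUUaagccag
Gm25878, nt 18 to 45, chr2:167063490-167063517, plus strand: acucacUUUUUuccccgucaUaucgaca
Outside exons of protein-coding genes, 6 of 99 genes named Snord had a site, and none of 42 named Snora and none of 9 named Scarna did. Sites within such exons, which the rule leaves out, gave Snora81 9 pooled cDNAs and Scarna10 10, both named after their values were seen. The 2 box H/ACA snoRNAs known by Gm numbers held 11 cDNAs together. Counts on snoRNAs that lie in introns cannot be told apart from crosslinks on the host's unspliced transcript, which covers the same nucleotides. Of the 63 gene records, 27 lay within a protein-coding or long non-coding gene on the same strand, and the 36 others held 79.2% of the cDNAs.

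U3 snoRNA, needed to cleave the ribosomal precursor, and U8 (Snord118), needed to mature the large subunit RNA, lie outside other genes and were named after their values were seen. Rnu3a had 1 and 11 cDNAs by calls and 18 and 11 by the split. Its only replicate 1 call was at position 214, the last nucleotide, whereas its other sites lay at positions 122 to 148. By that call alone the record counts as called in both replicates. The overlapping record, which ends at 213, had 0 and 11 by calls. Snord118 had 0 and 7 by calls and 13 and 7 by the split. As for Vaultrc5, the calls alone would place these RNAs in replicate 2.

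scaRNAs guide the modification of snRNAs, and 2 of 51 annotated had sites. Gm22009 (scaRNA7) had 15 and 9 cDNAs and Gm22767 (scaRNA1) had 6 and 0. rRNA records were led by n-R5-8s1, with 58 and 14 cDNAs and its highest nucleotide, uridine 68, at 26 and 2. Gm24601 followed with 30 and 7. Only 31.9% of the rRNA cDNAs lay on uridines, against 84.8% for U5.

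The 10 miRNA genes had 4 to 51 pooled cDNAs each. Sites outside exons of protein-coding genes were counted for 17 annotated genes from a list of miRNAs known in B cells. Mir142 and Mir155 had such sites and 15 had none. Mir142, a miRNA of blood cells, had 42 cDNAs in replicate 1 and 0 in replicate 2 by calls, and 9 for replicate 2 by the split. Mir155, which is induced on B cell activation, had 21 and 0 by calls, and 2 by the split. The mature forms next to the sites, from RefSeq and with the seed (bases 2 to 8) in capitals, were:
miR-142a-3p, chr11:87756903-87756925, plus strand: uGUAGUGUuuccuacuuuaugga
miR-155-5p, chr16:84714143-84714165, plus strand: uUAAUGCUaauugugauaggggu
miR-29a-3p, chr6:31062673-31062694, minus strand: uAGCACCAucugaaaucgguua
None of the 3 shares its seed with another. Of the 51 pooled cDNAs of Mir142, 23 marked the nucleotide directly before the first base of miR-142a-3p, which is where a cDNA that starts on that base is recorded, and 18 more marked the base itself. For Mir155, 20 of 23 marked the nucleotide before miR-155-5p. Mir29a, named after its values were seen, had 4 of 8 before miR-29a-3p. Others differed and were also named after their values were seen. Mir5136 had 6 of 17 before its mature miRNA and sites up to 17 nt before it, and the 19 cDNAs of Mir6236 were spread over 11 sites at positions 7 to 61, with none within 3 nt of the mature start. The opposite arm of each hairpin held no cDNA in Mir142 and Mir155.

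**Figure D4:**
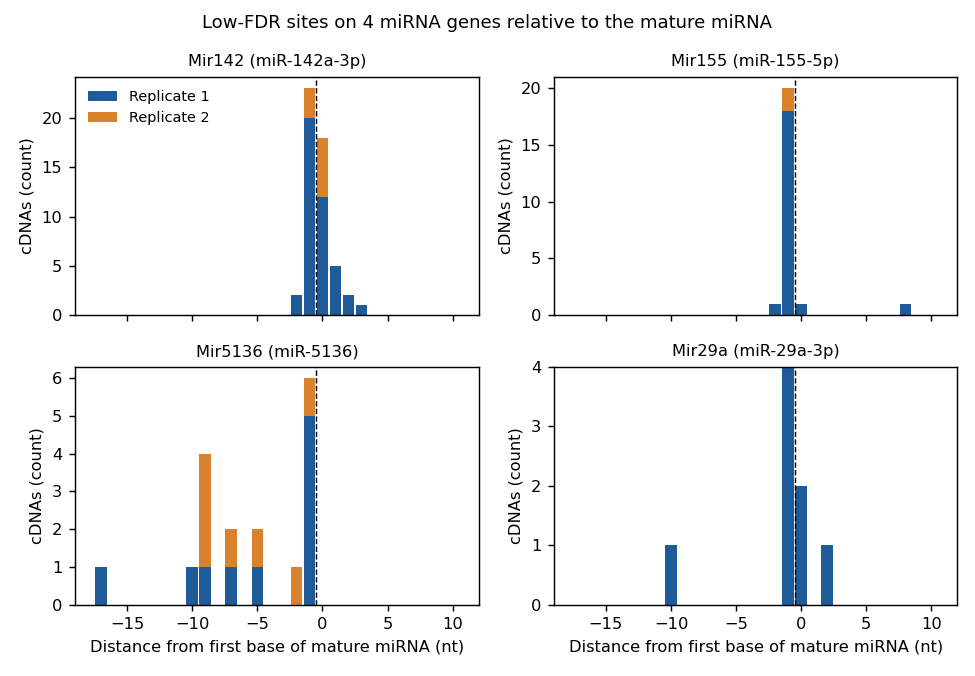
cDNAs (y axis, count, replicates stacked) by distance of the site from the first base of the mature miRNA (x axis, nt; 0 is the first base and the dashed line its 5′ edge) in 4 miRNA genes. The genes shown are those with a cDNA at -1, so the plot is no test of that position. The highest bar lies there in each, with 23 cDNAs for Mir142 and 20 for Mir155. Mir5100, Mir6236 and Mir1983 had no cDNA at -1 and are not shown.

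Mir5100 differed from these. It had 19 cDNAs in replicate 1 and 13 in replicate 2, and 30 of its 32 pooled cDNAs (17 and 13) marked the A at position 39. Mir1983 and n-TStga1, annotated as miRNA genes but overlapping a tRNA-Ile and a tRNA-Ser of RefSeq, also had their highest site on an A, with 5 of 6 and 3 of 5 cDNAs. They were named after their values were seen. In all 3 that A is the sixth letter of GUUCNANNC, the pattern of the T loop of tRNAs, which occurs in 123 of 6081 annotated genes of these types (2.02%) and in 6 of 62 loci with sites:
Mir5100, nt 28 to 55, chr11:60728690-60728717, plus strand: agcagaguucgAaucccagcggugccuc
Mir1983, nt 86 to 113, chr13:21896937-21896964, minus strand: uugugaguucgAGccucaccuggagcau
n-TStga1, nt 60 to 87, chr13:23518201-23518228, plus strand: gcgcagguucgAauccugccgacuacgu
In the other 3 matching RNAs the A held 2 of 212 cDNAs in Rny1 and none in Gm26132 and Vaultrc5.

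Uridine made up 28.9% of the nucleotides of the small RNAs and 49.4% of their sites (45.4% to 53.3%). It was 47.7% of sites called in replicate 1 and 66.5% of those called in replicate 2. When each cDNA was counted, 73.8% lay on uridines, 13.3% on cytidines, 6.27% on adenosines and 6.63% on guanosines. At sites in 3′UTRs of messages uridine made up 73.9% of sites and 83.2% of cDNAs, and 84.6% of the sites of replicate 2. Sites on small RNAs were thus less often uridines than 3′UTR sites in the pooled list and in each replicate. The mean uridine content of 31 nt centred on a site was 33.3% for small RNAs, beside 28.9% around all of their nucleotides and 44.7% for 3′UTR sites. A run of 5 uridines lay within those 31 nt at 25.1% of small RNA sites and 38.8% of 3′UTR sites. Sites of 1 gene share their sequence and are not independent, so these shares were not tested. The shares over all nucleotides of small RNAs include nucleotides where reads may have no unique place. The next 30 nt occur once in the genome at 69.9% of these nucleotides, and 84.5% of the cDNAs lay at such nucleotides. The part of mapping in the contrasts was not tested.

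The uridine share varied between families. By cDNAs it was 92.8% in U6atac, 89.3% in U1, 84.8% in U5 and 83.7% in box C/D snoRNAs, lower in Y RNAs at 65.4%, and lowest among the larger families in 7SK at 41.6%, miRNAs at 37.4% and rRNAs at 31.9%. Uridine exceeded its share of the whole RNA in each of these when cDNAs were counted. By sites rRNA was an exception, with 18.5% against 24.6%.

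**Figure D5:**
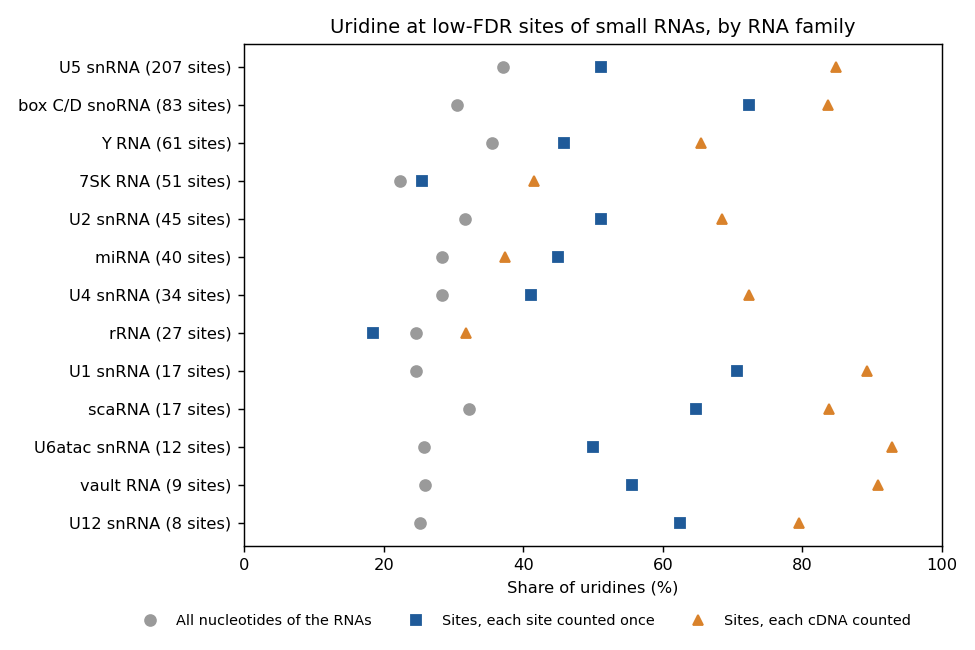
Share of uridines (x axis, percent) among all nucleotides, among sites and among cDNAs for each RNA family with at least 8 sites (y axis). Counted by cDNA, all 13 families lie above the share of their whole sequence, from 31.9% in rRNA to 92.8% in U6atac.

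Sites also lay more often at nucleotides predicted to be unpaired. In the minimum free energy structure of each RNA, 52.7% of sites (48.7% to 56.6%) were unpaired, beside 38.4% of all nucleotides of the same RNAs, and the share was 53.6% in replicate 1 and 62.7% in replicate 2. The averaged unpaired probability gave 55.2% and 39.6%. By family the share was 76.5% of sites against 50.4% of nucleotides in U4 and 62.3% against 37.4% in Y RNAs, but 29.4% against 38.97% in 7SK and 29.4% against 38.2% in scaRNAs. In U2 it was 44.4% against 42.7%, in miRNAs 35.0% against 33.3% and in rRNAs 40.7% against 39.02%. The structures are predictions for naked RNA without its proteins. Here too the shares over all nucleotides include those where reads may have no unique place, such as 221 of 331 in 7SK. The part of mapping in these contrasts was not tested.

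Messages of the proteins that bind these RNAs carried sites as well. Of 26 annotated genes from a list of such partners, 21 had exonic sites and 15 of these were called in both replicates. The 57.9% over all genes with a pooled site counts introns as well, so it is not the same measure. No share over all genes was counted on exons, so these counts show nothing particular to the partners. Ssb, which encodes La, had 427 and 138 cDNAs. Ccnt1, a cyclin of P-TEFb, had 157 and 31, and Srp14, a protein of the signal recognition particle, had 163 and 52. The RNAs of that particle had no site outside exons of protein-coding genes, but whether reads can be placed uniquely on them was not measured. Dkc1, the pseudouridine synthase of box H/ACA particles, had 149 and 47. Trove2, which encodes Ro60, had 6 pooled cDNAs and was called in neither replicate.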

How the data were processed

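The authors demultiplexed the iCLIP reads (50 nt, single end), used 4 random barcode bases to remove PCR duplicates, mapped the reads with Bowtie (no version given) to mm9 in the iCount pipeline and took the nucleotide before each read start as the crosslink. They deposited lists of nucleotides with a signed unique cDNA count, the sign giving the strand, for each replicate and for both pooled. Sites at FDR 0.05 were kept by the authors, from 100 permutations with 15 nt on either side. The deposited lists also hold all pooled crosslinks without the FDR filter, in mm9, and the pooled low-FDR sites moved to mm10.

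Replicate counts were joined by row to the mm10 list. The pooled count was the sum of both replicates at each of the 58002 nucleotides that both lists hold. Genes and exons came from GENCODE vM21 and family names from RefSeq products at the same position. Sites were assigned by strand with bedtools 2.31.1, RNAs were folded with ViennaRNA 2.7.2, and occurrences of 30 nt were counted on both strands of the primary chromosomes. The genes and lists were chosen with earlier results of these data known. Genes were named if in the rule (Rn7sk, Rny1, Rny3, Rmrp), among the 20 highest counts or the 2 highest of a type, and the text says where a gene was added. The site assignment and the 30-nt counts were tested on simulated data. The labels call the samples replicates and the study independent experiments. Replicate 2 held 165081 cDNAs against 639108 in replicate 1. Alternatives for the site threshold, overlapping transcripts, windows, weights and single replicates were run. One sequence stretch is not reported here.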

Additional observations from a re-analysis of the deposited data

How the results depend on the processing

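No paired analysis was possible because both samples belong to 1 group. Of 68 alternatives, 40 stayed within 1.5 times the count or within the replicate spread or interval, and the cause of the others was not tested beyond what each leaves out.

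The 63 genes became 38 with sites of at least 5 cDNAs and 29 to 46 with 1 replicate left out. They became 36 without sites inside a protein-coding or long non-coding gene on the same strand. That setting removed sites in long non-coding exons as well as in introns. With protein-coding transcripts in place of genes to define a coding exon, a choice made after seeing the data, 72 genes entered. Of the 9 added, the snoRNA Gm23262 had 225 pooled cDNAs (130 and 71 in the replicates) and the others 1 to 15. The 3862 pooled cDNAs became 671 and 2918 without replicates 1 and 2, and all crosslinks between the outermost sites gave 3984. With sites of at least 5 cDNAs, scaRNAs fell to 17 cDNAs, snoRNAs to 107, rRNAs to 64 and ribozymes to 0. Without sites inside a protein-coding or long non-coding gene, scaRNAs and ribozymes fell to 0, snoRNAs to 78 and miRNAs to 59.

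The replicate 2 share of 18.7% became 25.7% at sites called in both replicates, 20.5% with the split and 20.5% without Y RNAs. The last 2 were chosen after seeing the data. Over all pooled sites the share was 21.8% with the split, beside 20.5% by calls. The Rn7sk share of 6.47% was 6.68% to 7.90% with 1 replicate left out. It was 8.19% without sites inside a protein-coding or long non-coding gene. Uridine at sites (49.4%) was 73.8% by cDNA, 74.2% at sites of at least 5 cDNAs and 47.7% to 66.5% with 1 replicate left out. Uridine around sites (33.3%) was 37.2% in 11 nt, 34.3% in 21 nt, 34.5% without Rn7sk, 30.8% without U5 (chosen after seeing the data) and 33.4% to 33.9% with 1 replicate left out. The unpaired share (52.7%) was 67.4% by cDNA and 53.6% to 62.7% with 1 replicate left out. Within 15 nt, 92.3% of replicate 2 sites lay at a replicate 1 site.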
